A study of Sus scrofa with 12 samples.

Results

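Gene expression at the extremes of wall shear stress (WSS), 2 and 80 dyne/cm2, was compared directly in primary porcine arterial endothelial cells (ECs). The comparison rests on 6 of the 12 sequenced cultures, 3 at each extreme, chosen by the shear level given for each culture. WSS is the frictional force of flowing fluid on the cell layer, and the study took the extremes as the low and the supra-high WSS met in aneurysms. Every culture had been under laminar flow for 48 h before total RNA was taken, and replicates with the same number carried the same cell code (PecA, PecC or PecD), taken here as the donor, so that each donor gave 1 difference between 80 and 2 dyne/cm2. The donors were 8 months old. The labels call the cells aortic, the methods of the study coronary, so they are called arterial here.

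The extremes differed in more than flow. According to the series description, the cultures at 2 dyne/cm2 were seeded at 30000 cells per channel in a slide with 6 parallel channels (µ-Slide VI 0.4), and those at 80 dyne/cm2 at 100000 cells per channel in a slide with a single shallower channel (µ-Slide I 0.2 Luer), while the methods of the study name the former slide and density alone. Shear, slide and seeding density cannot be told apart in any difference between these groups. The study matched donor and passage between each extreme and its cultures at 30 dyne/cm2. Whether the extremes of a donor shared a passage or a run is not stated, so these cannot be told apart from shear either. The other 6 cultures, 2 sets of 3 from the same donors at the physiological 30 dyne/cm2, served only to place a changed gene between the extremes. One of these sets was run in each slide, but the labels of the cultures do not say which, and the sets are called set 1 and set 2. All cells were grown on gelatin in medium with fetal calf serum and heparin, the labels name no other cell type, and a culture is a model of an endothelial layer without the vessel wall beneath it.

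ECs sense the drag of the blood through ion channels, receptors, junction proteins and integrins. Steady laminar shear is known to induce the transcription factors KLF2 and KLF4, which drive vasodilator and anticoagulant genes, whereas low or disturbed shear is associated with endothelin, matrix proteins and targets of the co-activators YAP and TAZ. These are textbook roles, given here to place the genes below.

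The libraries at 2 dyne/cm2 held 29606854 to 39171458 counts, those at 80 dyne/cm2 32622608 to 36124114. A single gene, that of the matrix glycoprotein fibronectin (FN1), took 7.45%, 5.23% and 11.096% of all counts in donors 1, 2 and 3 at the low extreme, while its share at the high extreme was 0.951%, 1.14% and 1.15%. Values are therefore given as counts scaled to library size (CPM) with TMM normalisation, which is made to keep a few such genes from shifting all others. The libraries carried the markers of endothelium throughout. PECAM1 lay at 2218, 2072 and 1592 CPM at 2 dyne/cm2 and 3886, 3545 and 4000.01 CPM at 80 dyne/cm2, and CDH5, the cadherin of endothelial junctions, at 1916, 1674 and 1496 and 2013, 2225 and 1581 CPM. The summed level of 11 endothelial markers was 5660 to 6690 CPM at 2 and 9250 to 9990 CPM at 80 dyne/cm2. In such bulk RNA, fewer cells of a type and less RNA per cell cannot be told apart. Of 10 leukocyte markers, the defining PTPRC had at most 2 counts in a library and CD163 had 0, and the summed level was 8.35 to 11.6 CPM at 2 and 14.3 to 28.9 CPM at 80 dyne/cm2. CD68 and CD14, the only 2 of them tested below, reached at most 7.92 and 2.94 CPM at 2 and 21.7 and 5.11 CPM at 80 dyne/cm2. Of these, CD68 was called higher at 80 dyne/cm2. The summed level of 6 lymphatic markers was 2.06 to 6.5 CPM at 2 and 1.32 to 2.96 CPM at 80 dyne/cm2.

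Genes were tested where 3 or more of the 6 libraries reached 1 CPM. Of these 11246 genes, 1465 (13.0%) passed an adjusted p under 0.05 with at least a 2-fold change in the paired comparison, and are called changed in what follows. Of these, 707 (6.29% of the genes tested) were higher and 758 (6.74%) lower at 80 dyne/cm2. Without the donor term 461 passed as lower, and without donor 3, 466. The change was at least 4-fold for 518 genes and at least 16-fold for 97, of which 63 were higher and 34 lower at 80 dyne/cm2. The direction was the same in all 3 donors for 1464 of the 1465 changed genes, against 63.6% of all genes tested. The CPM ranges of the groups did not overlap for 1248 of them, against 38.4% of all genes tested. The genes were called on these same donor differences, which by itself favours both, so neither count is separate support for the calls. The median change over all genes was 0.01 on the log2 scale, a centre near 0 that the TMM normalisation itself tends to set. The adjusted p alone was under 0.05 for 3520 genes (31.3%), and 2055 of these changed by less than 2-fold. Conversely, 242 of the changed genes were under 2.2-fold, just past the limit. The gene lists described below were drawn up by function, and some genes stand in more than 1 list. Their counts are to be read against the 6.29% higher and 6.74% lower among all genes tested.

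**Figure D1:**
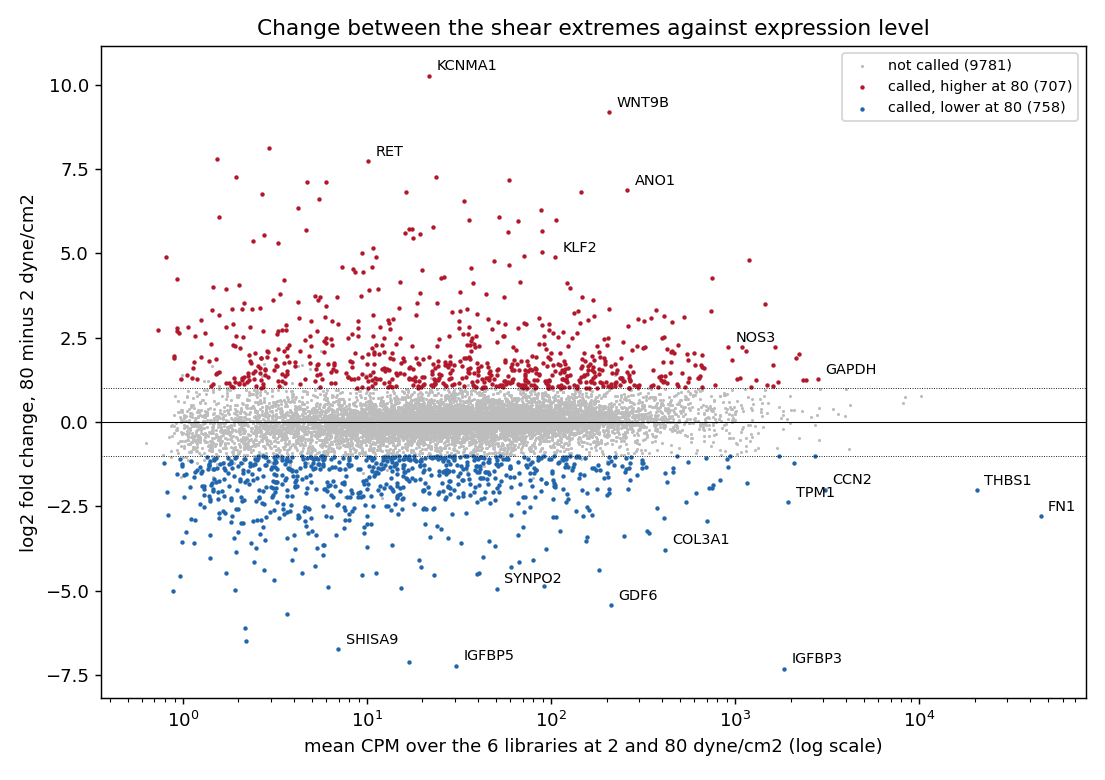
Each point is 1 of the 11246 genes tested, with its mean CPM over the 6 libraries at 2 and 80 dyne/cm2 on a log axis and its log2 fold change, 80 minus 2 dyne/cm2, on the vertical axis. The 707 genes called higher are red and the 758 called lower are blue, dotted lines mark a 2-fold change, and FN1, THBS1 and IGFBP3 stand out as abundant genes that were lower at 80 dyne/cm2.

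The genes listed here as induced by laminar flow were mostly higher at 80 dyne/cm2. Of 13 tested members of this list, 8 rose, 1 fell and 4 were not called, with a median log2 change of 1.68. KLF2 (Sscrofa11.1 chr2:61270733-61273037), the transcription factor taken as a readout of protective flow, had 2.72, 11.9 and 8.68 CPM in donors 1 to 3 at 2 dyne/cm2 and 222, 182 and 205 CPM at 80 dyne/cm2. The lowest library at 80 dyne/cm2 stood over 10 times above the highest at 2 dyne/cm2, and the log2 change was 4.88 ± 0.50 (SE, n = 3 pairs, adjusted p = 0.00242, edgeR quasi-likelihood test). Its relative KLF4 went from 25.2, 49.8 and 32.1 to 268, 236 and 342 CPM, a log2 change of 3.03 (adjusted p = 0.00167). NOS3, the endothelial nitric oxide synthase, had 237, 286 and 478 CPM at 2 and 1224, 1411 and 1842 CPM at 80 dyne/cm2, with no overlap and a log2 change of 2.21 ± 0.14 (adjusted p = 0.000897). The water channel AQP1 rose from 3.96, 2.71 and 3.73 to 96, 76.9 and 111 CPM, a 27.4-fold change with close agreement among donors.

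The rest of the flow list moved less evenly. The orphan nuclear receptor NR4A1 rose by 4.29 on the log2 scale, and ASS1, which supplies arginine for nitric oxide synthesis, by 1.68. CYP1A1, a target of the aryl hydrocarbon receptor, had 104, 435 and 97.2 CPM at 2 and 304, 608 and 587 CPM at 80 dyne/cm2, so that donor 2 at 2 dyne/cm2 lay above donor 1 at 80 dyne/cm2. Its call (log2 change 1.55, adjusted p = 0.0362) did not hold without the donor term (adjusted p = 0.245), without donor 1 (0.0695) or without donor 3 (0.121). CYP1B1, which answers to the same receptor, had 11, 60.2 and 4.39 CPM at 2 and 10.2, 76.3 and 49.2 CPM at 80 dyne/cm2 and was not called (adjusted p = 0.295). AHRR, the repressor of that receptor, and TIPARP, another of its targets, had log2 differences of -0.72 and -0.78 (adjusted p = 0.0199 and 0.0177), under the 2-fold limit. TXNIP had a log2 difference of 0.60 (adjusted p = 0.0345, edgeR), under the 2-fold limit. Its place in a list of flow-induced genes is uncertain, and whether each member is induced by laminar flow was not tested. PALMD went against the list, falling from 61.6, 35 and 109 to 9.23, 9.08 and 24.5 CPM (log2 change -2.27, adjusted p = 0.0012).

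Genes associated with low flow showed the opposite tendency, with 9 of 17 tested members lower at 80 dyne/cm2, 1 higher and 7 not called (median log2 change -1.05). EDN1, the precursor of the vasoconstrictor endothelin-1, had 703, 629 and 791 CPM at 2 dyne/cm2 and 86.8, 184 and 59.8 CPM at 80 dyne/cm2, a log2 change of -2.84 ± 0.39 (adjusted p = 0.00565). BMP4, a secreted growth factor of low-shear endothelium, fell from 316, 199.9 and 336 to 49.1, 21.7 and 16 CPM. Both genes had every library at 2 dyne/cm2 above every library at 80 dyne/cm2. ICAM1, which holds leukocytes at the endothelium, was the member that rose (319, 403 and 258 CPM at 2 against 432, 1215 and 708 CPM at 80 dyne/cm2, adjusted p = 0.0199, but 0.0651 without donor 2, 0.139 without donor 3 and 0.0732 without the donor term). VCAM1 had 1585, 1737 and 498 CPM at 2 and 1072, 1165 and 349 CPM at 80 dyne/cm2, a log2 difference of -0.54 that fell short of 2-fold (adjusted p = 0.0189). For the chemokines CCL2 and CXCL8 the log2 differences were 0.18 ± 0.46 and 0.63 ± 0.54, within the spread of the donors (adjusted p = 0.804 and 0.424), although CXCL8 passed without donor 1 (adjusted p = 0.0015) and CCL2 turned to -0.21 without donor 2 and -0.23 without donor 3. Without donor 1, 5 members of this list were lower and 2 higher, and without donor 3, 4 were lower and 0 higher. Tested against a 1.5-fold change, 5 were lower and 0 higher.

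**Figure D2:**
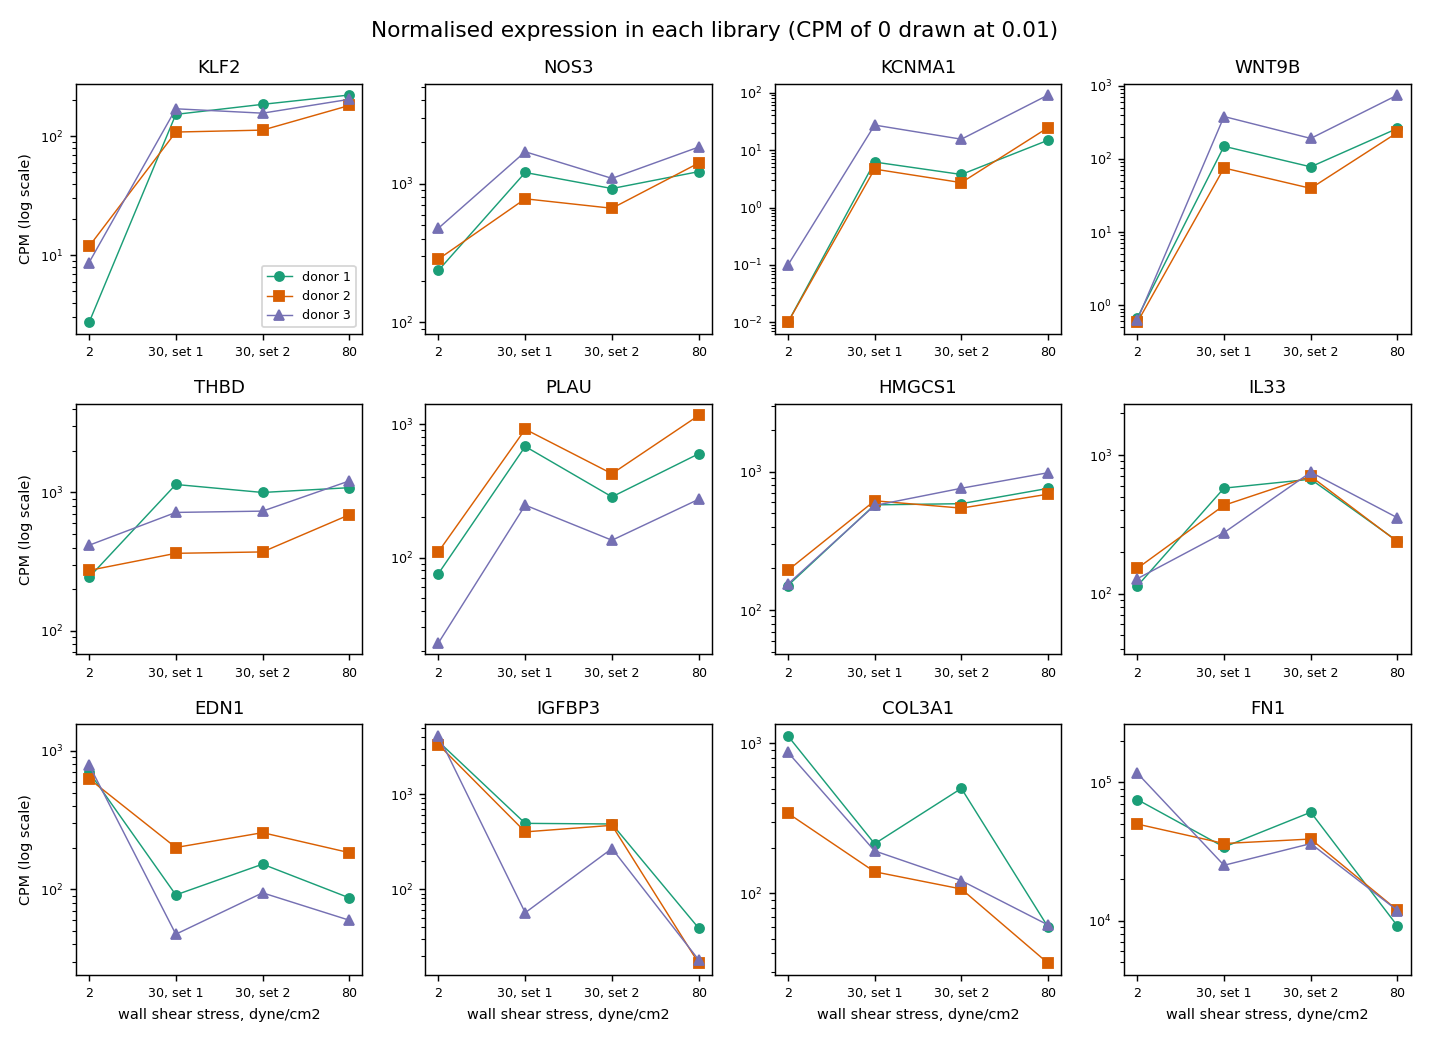
Normalised expression (CPM, log axis) of 12 genes in each of the 12 libraries, with shear on the horizontal axis and each donor drawn as its own symbol and line. KLF2, NOS3, KCNMA1, WNT9B, THBD, PLAU and HMGCS1 were higher and EDN1, IGFBP3, COL3A1 and FN1 lower in every donor at 80 than at 2 dyne/cm2, while IL33 was highest at 30 dyne/cm2 in donors 1 and 2 in both sets and in donor 3 in set 2.

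The adrenomedullin and natriuretic peptide systems each changed at several of their parts. Of 18 tested vasoactive genes, 5 rose, 5 fell and 8 were not called, and without the donor term 3 fell. The vasodilator peptide gene ADM fell from 66.6, 62.3 and 21.8 to 5.76, 5.85 and 2.01 CPM (log2 change -3.45 ± 0.11, adjusted p = 0.00031). Both parts of its receptor rose over the same cultures. CALCRL went from 62.2, 93.2 and 43.6 to 414, 374 and 588 CPM (log2 change 2.83, adjusted p = 0.00378), and its partner RAMP2 from 39.3, 21.8 and 64.2 to 182, 182 and 290.4 CPM (log2 change 2.48, adjusted p = 0.00137). In the natriuretic peptide system a ligand and its clearance receptor went opposite ways. NPPC, encoding C-type natriuretic peptide, had 0.36, 0.484 and 0.033 CPM at 2 and 55.9, 33.1 and 8.21 CPM at 80 dyne/cm2 (log2 change 6.81, adjusted p = 0.000397), and the guanylate cyclase receptor NPR1 rose by 1.31. NPR3, the receptor that clears these peptides, fell from 271, 145 and 612 to 36.8, 3.88 and 17 CPM (log2 change -4.4, adjusted p = 0.00425). PTGES, which makes prostaglandin E2, rose by 2.5 on the log2 scale. ACE, which makes angiotensin II, fell by 2.08, with an adjusted p of 0.00179 (0.0778 without the donor term).

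Genes of clotting and clot lysis were called in both directions. In the list of coagulation and fibrinolysis, 8 of 17 tested members rose, 2 fell and 7 were not called. Thrombomodulin (THBD), the cofactor that turns thrombin to anticoagulant work, had 244, 274 and 416 CPM at 2 and 1082, 689.6 and 1211 CPM at 80 dyne/cm2 (log2 change 1.68 ± 0.19, adjusted p = 0.00302). ENTPD1 and NT5E, the surface enzymes that break ATP and ADP down to adenosine, rose by 4.45 and 1.8 on the log2 scale, and TFPI, the inhibitor of the tissue factor pathway, by 1.9. The NT5E call was lost without donor 2 (adjusted p = 0.0607) or donor 3 (0.114). The protease PLAU rose from 75.9, 111 and 22.9 to 599, 1160.2 and 273 CPM, its receptor PLAUR from 28.3, 32 and 11 to 113, 267 and 136 CPM, and S100A10, which holds plasminogen at the cell surface, by 2.0 on the log2 scale. SERPINE2, an inhibitor of thrombin and urokinase, rose with them, from 51, 84.8 and 63.9 to 265, 762 and 684 CPM (log2 change 3.0, adjusted p = 0.00118). TFPI2 and PROS1, the gene of the anticoagulant protein S, were the members that fell, by 1.69 and 1.15 on the log2 scale.

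The largest fitted changes belonged to genes that were nearly silent at 2 dyne/cm2. KCNMA1 (ENSSSCG00000010325, Sscrofa11.1 chr14:79345382-80106337), the pore of the large-conductance calcium-activated potassium channel, had 0, 0 and 0.099 CPM at 2 dyne/cm2 and 14.9, 24.7 and 90.9 CPM at 80 dyne/cm2. All 3 libraries at 2 dyne/cm2 held at most 3 counts, so the change is given as a bound, at least 478-fold higher against a floor of 3 counts per library (adjusted p = 0.00031). Without donor 3 the bound was 227-fold. WNT9B (ENSSSCG00000035524, Sscrofa11.1 chr12:17709046-17733434), a secreted Wnt ligand, rose from 0.668, 0.581 and 0.627 to 262, 229.9 and 748 CPM, a log2 change of 9.19 ± 0.35 (adjusted p = 0.000363). The levels at 2 dyne/cm2 agreed closely among donors, while at 80 dyne/cm2 donor 3 stood well above the others. The calcium-activated chloride channel ANO1 rose from 2.42, 3.58 and 7.36 to 245, 681 and 614 CPM (log2 change 6.86, adjusted p = 0.000397), and the elastic fibre protein EMILIN2 from 4.06, 1.61 and 2.11 to 277, 226 and 357 CPM (log2 change 6.83). SBSPON, ZBTB46 and the proteoglycan CSPG4 were also at the floor at 2 dyne/cm2, and were at least 64.4-fold, 33.5-fold and 42.4-fold higher at 80 dyne/cm2. SBSPON had 12.6, 3.79 and 1.16 CPM there, and its bound without donor 1 was 25.3-fold. The 12 named genes with the largest rises also held NPPC and the receptor tyrosine kinase RET. RET had 0.0257, 0.129 and 0.066 CPM at 2 and 1.6, 7.14 and 52 CPM at 80 dyne/cm2. C6orf132, NGEF and the serine protease TMPRSS6, also among the 12, rose by 7.26, 7.13 and 7.12 on the log2 scale.

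Ion channels and purine receptors as a group leaned the same way. Of 24 tested members, 9 rose, 1 fell and 14 were not called, with a median log2 change of 0.74. The calcium-activated potassium channels KCNN4 and KCNN3, which hyperpolarise the endothelium, rose from 1.46, 4.71 and 1.55 to 23.8, 60.7 and 58.3 CPM and from 0.822, 3.61 and 2.48 to 9.39, 26.2 and 22.5 CPM. The shear-sensing cation channel PIEZO1 was at 400.3, 473 and 423 CPM at 2 dyne/cm2 and 701, 1013 and 956 CPM at 80 dyne/cm2, a log2 change of 1.03 ± 0.12 that fell under the 2-fold limit without donor 2 or donor 3 (1.00 and 0.95). TRPV4, another mechanosensitive channel, rose by 1.73, the store-operated calcium channel subunit ORAI1 by 1.8 and the ATP receptor P2RY2 by 2.22. The accessory potassium channel subunit KCNE3 was the member that fell (log2 change -1.56). Without donor 3 neither TRPV4 (adjusted p = 0.0691) nor KCNE3 (0.136) was called, nor KCNE3 without donor 2 (0.0693) or TRPV4 without the donor term (0.0636).

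The insulin-like growth factor axis held the strongest fall. Of 13 tested members, 7 fell, 1 rose and 5 were not called (median log2 change -1.02). IGFBP3 (ENSSSCG00000038783, Sscrofa11.1 chr18:50002921-50009425), a secreted carrier of these growth factors, had 3569.7, 3308 and 4096 CPM at 2 dyne/cm2 and 39, 16.7 and 18.1 CPM at 80 dyne/cm2. No donor stood apart at 2 dyne/cm2, and the log2 change was -7.31 ± 0.37 (adjusted p = 0.000512), a 159-fold drop in an abundant transcript. IGFBP5 went from 129.7, 34.7 and 17.4 to 0.214, 0.339 and 0.441 CPM (log2 change -7.23, adjusted p = 0.00165), with the starting levels spread widely among donors. IGFBP6, a carrier that prefers IGF2, was the member that rose, from 1.59, 2.58 and 1.98 to 111, 105 and 175 CPM (log2 change 5.97, adjusted p = 0.000397). The adaptor IRS2 fell by 3.36 on the log2 scale and STC2, which blocks release of these growth factors from their carriers, by 2.02. Without donor 3, 4 members fell.

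The other genes with the largest falls were a mixed group. The BMP family ligand GDF6 had 448, 253 and 539.6 CPM at 2 dyne/cm2 and 11.6, 11.5 and 5.19 CPM at 80 dyne/cm2 (log2 change -5.43 ± 0.48, adjusted p = 0.0016). The actin-bundling protein SYNPO2 fell from 101, 83.7 and 109 to 6.25, 1.75 and 2.49 CPM, a 30.8-fold change in the fit, with donor 1 falling less than the others. The glutamate receptor subunit GRIA3 reached the floor at 80 dyne/cm2 and was at least 48.1-fold lower there, from 7.4, 3.36 and 2.08 CPM at 2 dyne/cm2 (29.1-fold without donor 1). MDFIC2, SHISA9 and ANGPTL5 fell by 7.11, 6.73 and 6.5 on the log2 scale, RASGEF1C fell by 5.7, and ZNF853, ANK2 and RASSF2 changed by between -4.99 and -4.89.

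By number, the list of interstitial matrix genes held the most falls, and it was one of the longest lists. Of its 46 tested genes, 22 fell, 5 rose and 19 were not called (median log2 change -0.85). Of all genes tested, 6.74% were lower. Shorter lists had a similar share of falls, such as that of the interferon response with 13 of 27. FN1 (ENSSSCG00000016174, Sscrofa11.1 chr15:117658158-117737145) had 75013, 49906 and 116369 CPM at 2 dyne/cm2 and 9167, 11906 and 11849.5 CPM at 80 dyne/cm2. The libraries at 80 dyne/cm2 were close together, those at 2 dyne/cm2 spread over more than 2-fold, and the log2 change was -2.8 ± 0.39 (adjusted p = 0.00588, and 0.0539 without donor 3). Thrombospondin-1 (THBS1), a matrix glycoprotein that restrains angiogenesis, fell from 33371, 27566 and 37656 to 5740.00, 11803 and 7589.7 CPM (log2 change -2.02, adjusted p = 0.0115), a call that was lost without donor 1 (adjusted p = 0.0555) or donor 3 (0.0955). COL3A1, the type III collagen chain, went from 1123, 343 and 873 to 59.7, 34.3 and 61.7 CPM, with no overlap (log2 change -3.79 ± 0.21, adjusted p = 0.000584). Periostin (POSTN) differed so much between donors, with 1699.6, 84.3 and 34.6 CPM at 2 and 166, 16.5 and 1.73 CPM at 80 dyne/cm2, that the groups overlapped while each donor fell (log2 change -3.24, adjusted p = 0.00316, and 0.313 without the donor term). The collagen crosslinker LOXL1 fell by 2.72 on the log2 scale. Elastin (ELN), 0.0771, 0.323 and 2.54 CPM at 2 and 6.81, 7.73 and 7.9 CPM at 80 dyne/cm2, and the collagen VI chain COL6A1, 1.85, 2.42 and 0.363 and 8.41, 11.2 and 3.46 CPM, were among the members that rose, both at low levels. Neither was called without the donor term (adjusted p = 0.112 and 0.08), nor ELN without donor 2 (0.0871). Without the donor term 9 members of this list fell and 2 rose, and without donor 3 12 fell and 6 rose.

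Markers of other matrix-making cells were followed beside these genes. The summed level of 11 smooth muscle markers was 155 to 190 CPM at 2 and 52.3 to 80.1 CPM at 80 dyne/cm2, with SYNPO2 and SMTN making up most of it. Of its 4 tested members, 1 rose and 2 fell, and without donor 2 or donor 3, 1 fell. The defining markers DES, CNN1 and ACTA2 had at most 0, 2 and 17 counts in any of the 6 libraries. The smooth muscle regulator MYOCD reached at most 5.32 CPM at 2 and 1.01 CPM at 80 dyne/cm2 and was called lower. LMOD1, the member that rose, reached at most 1.25 and 4.85 CPM. The summed level of 10 fibroblast markers was 52.5 to 206 CPM at 2 and 64.7 to 150 CPM at 80 dyne/cm2, and 4 of its 7 tested members fell while 1, PI16, rose, a count of 1 lower without the donor term. PDGFRA and PDGFRB reached at most 4.88 and 7.0 CPM in any of these libraries, but other members were higher. COL1A2, THY1 and COL1A1 reached at most 183, 29.6 and 49.2 CPM at 2 and 112, 62.5 and 2.19 CPM at 80 dyne/cm2. The part of such cells in the matrix results was not tested.

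Basement membrane genes did not share one direction, with 3 of 17 tested members higher and 2 lower (2 and 4 without donor 2). The laminin subunit gene LAMA5 rose from 387, 443 and 455 to 1492, 2189 and 1906 CPM (log2 change 2.11, adjusted p = 0.000891), whereas LAMA3 fell from 6.22, 1.26 and 18.1 to 0.534, 0.0923 and 0.315 CPM (log2 change -4.48, adjusted p = 0.00325). Neither gene had overlapping groups. The calcium-binding matrix protein SMOC1 also fell by 4.48 on the log2 scale.

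Enzymes that cut matrix, and their inhibitors, leaned upward, with 8 of 21 tested members higher, 2 lower and 11 not called (1 lower without donor 1 or without the donor term). ADAMTS1, a protease of matrix proteoglycans, rose from 1.98, 3.1 and 2.08 to 56.8, 465 and 111 CPM, with donor 2 far above the other donors at 80 dyne/cm2 (log2 change 5.99 ± 0.50, adjusted p = 0.00137). MMP14, the membrane-bound collagenase, was even across donors, at 306, 252 and 247 CPM at 2 and 984, 1158 and 1001 CPM at 80 dyne/cm2 (log2 change 1.97, adjusted p = 0.00109), and MMP28 rose by 3.63. The inhibitors split. TIMP1 rose by 2.05 and TIMP3 by 1.45 on the log2 scale, while RECK, a membrane inhibitor of metalloproteinases, fell from 218, 207 and 344 to 48.9, 64.9 and 59.8 CPM (log2 change -2.11).

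Of 16 tested integrin subunits, 7 rose, 2 fell and 7 were not called. ITGB3, which pairs with ITGAV to bind fibronectin and vitronectin, rose from 10.4, 20.8 and 10.0 to 271, 234 and 184 CPM (log2 change 4.13 ± 0.26, adjusted p = 0.000845). ITGB5, which pairs with the same alpha subunit, fell from 1159, 1214 and 1178 to 304, 376 and 291 CPM (log2 change -1.87, adjusted p = 0.000942), with almost equal levels in the donors at 2 dyne/cm2. ITGA5, the alpha subunit of the fibronectin receptor and one of the most abundant genes that rose, went from 1207, 1686 and 1392 to 2595, 4282 and 3426 CPM (log2 change 1.26), in the cultures where FN1 fell. The laminin-binding subunit ITGA6 rose by 2.09, and the collagen-binding subunit ITGA1 fell by 1.92 on the log2 scale.

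**Figure D3:**
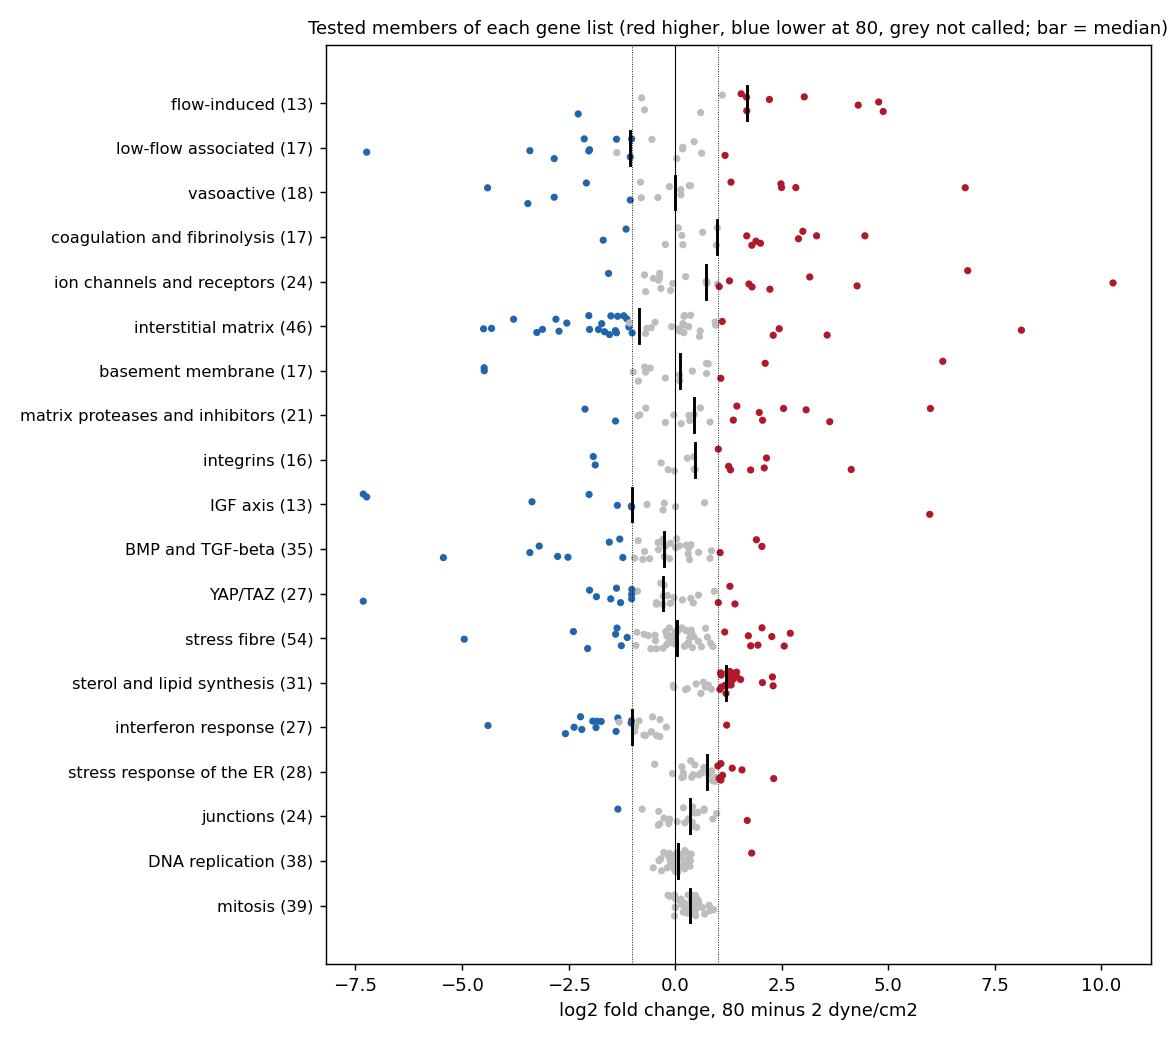
Log2 fold change, 80 minus 2 dyne/cm2, of each tested member of 19 gene lists, with the number tested in brackets, called genes in red (higher) or blue (lower), others in grey, and a black bar at the median. The medians run from -1.05 for low-flow genes to 1.68 for flow-induced genes, and no member of the mitosis list was called.

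Genes of cholesterol synthesis were higher at 80 dyne/cm2. Of 31 tested genes of sterol and fatty acid synthesis, 21 rose, 0 fell and 10 were not called, with a median log2 change of 1.2, and 18 were called higher without donor 3. No member had an unadjusted p under 0.05 for a fall, in edgeR or DESeq2. Of all genes tested, 6.29% were higher. HMGCS1, which makes the precursor of mevalonate, had 150.4, 194 and 154 CPM at 2 dyne/cm2 and 757, 687 and 982 CPM at 80 dyne/cm2 (log2 change 2.28 ± 0.18, adjusted p = 0.00131). Squalene epoxidase (SQLE) went from 82.9, 85.3 and 86.2 to 215, 177 and 264 CPM. HSD17B7, a late enzyme of the pathway, and the isomerase IDI1 rose by 2.3 and 1.54 on the log2 scale, and fatty acid synthase (FASN) by 1.31. For each of these 5 genes the groups did not overlap. The members not called included the regulators SREBF1 (log2 difference 0.61) and SREBF2 (0.71), which switch these genes on. Both had an adjusted p under 0.05 in edgeR and missed only the 2-fold limit.

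Genes induced by interferon were lower at 80 dyne/cm2, with 13 of 27 tested members lower, 1 higher and 13 not called (median log2 change -1.02). The fall was uneven among donors. The chemokine CXCL10 had 7.6, 5.81 and 2.08 CPM at 2 and 0, 1.02 and 0 CPM at 80 dyne/cm2 (log2 change -4.39 ± 1.02, adjusted p = 0.0272). The antiviral genes IFIT2 and RSAD2 went from 70.8, 23.4 and 12.1 to 4.78, 7.79 and 2.55 CPM and from 125, 38.6 and 7.33 to 10.5, 15.7 and 2.39 CPM, with donor 1 the highest at 2 dyne/cm2 in both. HERC6 went the other way, from 114, 106 and 78.8 to 207, 259.5 and 217 CPM (log2 change 1.21, adjusted p = 0.00314). Without the donor term, 3 members passed as lower. Without donor 3, 0 passed in edgeR, while 19 had an unadjusted p under 0.05 for a fall and the median log2 difference was -1.17. The adjusted p of CXCL10, IFIT2 and RSAD2 was then 0.126, 0.0772 and 0.0947. With all donors, DESeq2 called 14 lower, and 6 were lower when tested against a 1.5-fold change.

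**Figure D4:**
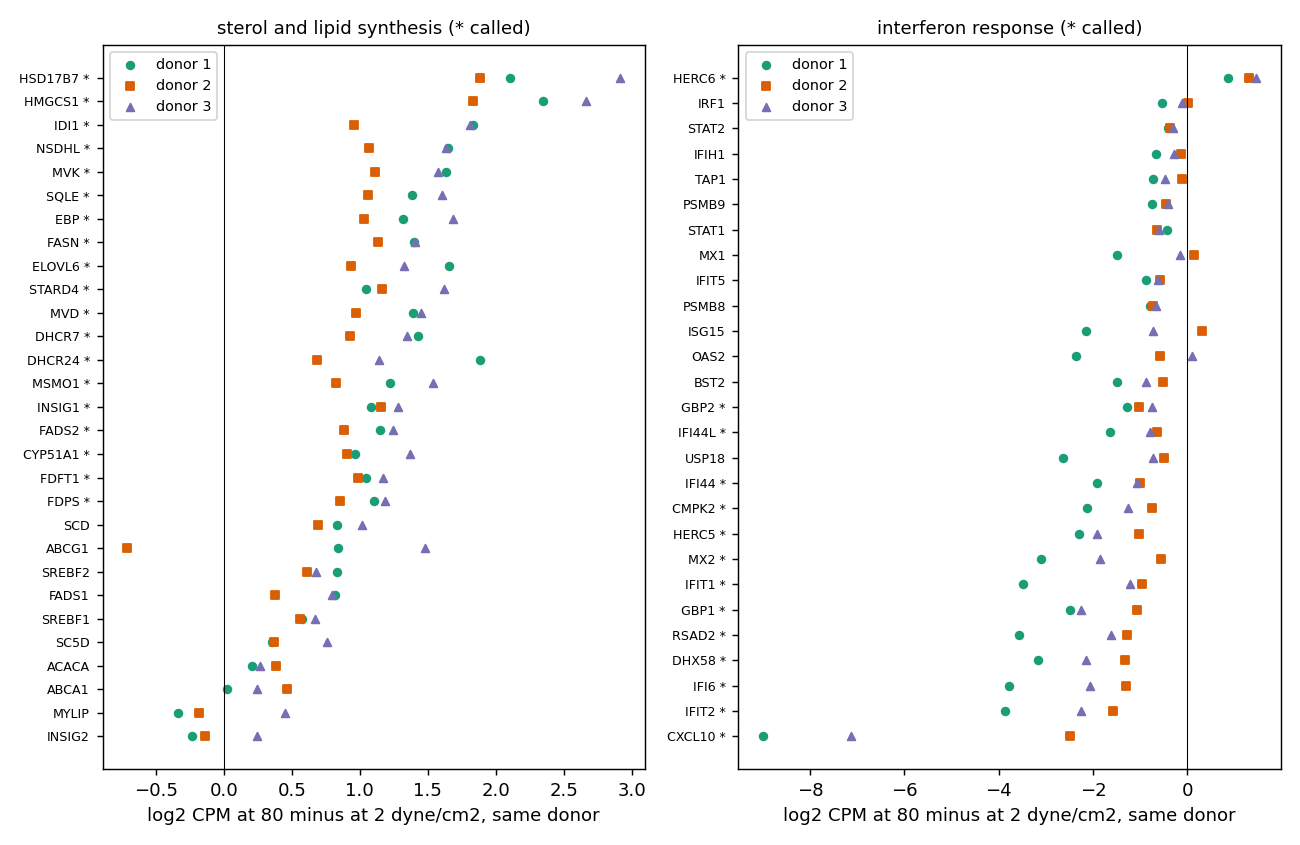
Log2 difference in CPM, 80 minus 2 dyne/cm2, within each donor (symbols) for most tested genes of sterol and lipid synthesis (left) and of the interferon response (right), ordered by the fitted change, with called genes starred. The called sterol genes shown lie to the right of 0 in all donors, and donor 1 shows the largest fall for most interferon genes.

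Genes of the cytoskeleton divided. Of 54 tested genes of stress fibres and focal adhesions, 8 rose, 7 fell and 39 were not called, and the median log2 change was 0.04. Tropomyosin 1 (TPM1), which stabilises actin filaments, fell from 2502, 1932 and 5442 to 807, 381 and 589.7 CPM (log2 change -2.39 ± 0.33, adjusted p = 0.00546). The scaffold PDLIM7 rose from 174, 211 and 169 to 549.8, 753 and 589 CPM (log2 change 1.77, adjusted p = 0.00062), while its relatives PDLIM1 and PDLIM5 fell by 1.4 and 1.36 on the log2 scale. ACTB, the cytoplasmic beta actin, had 1829, 1945 and 2391 CPM at 2 and 2480.2, 2974 and 2178 CPM at 80 dyne/cm2 and was not called (adjusted p = 0.273). Among abundant structural genes that rose were the cytolinker PLEC, from 1204, 1413 and 1545 to 2971, 3121 and 3827 CPM, and lamin A/C (LMNA), from 1004, 1068 and 1039.6 to 2465, 1884 and 2828 CPM, a call lost without donor 3 (adjusted p = 0.0561). Without the donor term, 5 members of the list rose and 5 fell.

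Targets and partners of YAP and TAZ tended to be lower at 80 dyne/cm2, with 9 of 27 tested members lower and 3 higher (5 lower without donor 1). CCN2, a matricellular target, fell from 4917, 3834 and 5996 to 1151, 1609 and 930.3 CPM (log2 change -2.01 ± 0.31, adjusted p = 0.00755), and ANKRD1 from 3513, 3829 and 3255 to 1154, 2942 and 1533 CPM. The ANKRD1 change sat at the 2-fold limit (log2 change -1.02, adjusted p = 0.0355) and was lost without the donor term (adjusted p = 0.134) and without donor 1 (0.119) or donor 3 (0.18). The TAZ gene WWTR1 fell from 231, 227 and 307 to 94.1, 97.8 and 121 CPM (log2 change -1.28, adjusted p = 0.001), and YAP1 had a log2 difference of -0.34 (adjusted p = 0.0588). TEAD4, a DNA-binding partner, rose by 1.29.

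In BMP and TGF-beta signalling 8 of 35 tested members fell and 3 rose. Over all genes tested 6.74% fell and 6.29% rose, and the share of this list that rose was near the latter. The ligands GDF6 and BMP4, named above, were among the members that fell, as was TGFBI, a secreted matrix protein induced by TGF-beta, which went from 46.6, 101 and 168 to 6.14, 20.0 and 20.6 CPM. The BMP antagonist noggin (NOG) rose from 6.29, 7.26 and 6.44 to 24.8, 23.7 and 26.2 CPM (log2 change 1.91 ± 0.12, adjusted p = 0.000897), with little spread among donors, and LTBP1, which stores latent TGF-beta in the matrix, rose by 2.04. Of 21 tested Wnt genes, WNT9B rose and 5 fell, the ligand WNT2B (-2.06) and the receptors FZD8 (-2.0), FZD5 (-1.79), FZD7 (-1.32) and FZD4 (-1.02). Without donor 3, 3 fell, FZD7 (adjusted p = 0.164) and FZD4 (0.0561) being lost, and without donor 1 FZD7 was lost (0.0854). Without donor 2, 2 Wnt genes rose and 6 fell, and without the donor term, or tested against a 1.5-fold change, 3 fell. Of 17 Notch and arterial genes, 3 rose and 1 fell. LFNG, which modifies Notch receptors, went from 10.5, 21.3 and 49.7 to 203, 117 and 393 CPM, the ligand DLL1 rose by 3.37, and the target HEY1 fell from 54.9, 57.1 and 21.3 to 16.1, 16.8 and 3.97 CPM (adjusted p = 0.00149, and 0.0946 without the donor term).

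Several receptors of the VEGF and angiopoietin systems were higher, while 5 of the 16 tested members rose and 5 fell. TEK (TIE2), the angiopoietin receptor, rose from 70.2, 81.9 and 44.2 to 541, 449 and 600.2 CPM (log2 change 3.06 ± 0.27, adjusted p = 0.00158). The VEGF receptor FLT1 rose by 1.15 on the log2 scale, and KDR by 1.42 (adjusted p = 0.0022, and 0.28 without the donor term), whereas the receptor FLT4 fell by 1.79 (adjusted p = 0.0349, and 0.0967 without donor 3). ANGPT2, the ligand that opposes TEK signalling, fell by 2.13 ± 0.60 (adjusted p = 0.0461, with 0.102 and 0.053 without donor 2 and donor 3 and 0.209 without the donor term), and donor 1 at 80 dyne/cm2 lay above donor 2 at 2 dyne/cm2. Without the donor term 2 members of this list were higher and 1 lower, without donor 1, 5 and 3, without donor 2, 3 and 4, and without donor 3 or tested against a 1.5-fold change, 3 and 1.

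Genes of leukocyte adhesion and cytokines were called in both directions, 4 of 28 tested members higher and 3 lower. Without donor 1, 2 or 3 in turn, 6, 3 and 2 were higher and 5, 6 and 2 lower, and tested against a 1.5-fold change 2 were higher. P-selectin (SELP), which catches leukocytes, rose from 187, 81.3 and 34.3 to 612, 724 and 834 CPM (log2 change 3.15 ± 0.57, adjusted p = 0.0127), with no overlap between the groups. Interleukin-7 (IL7) fell from 46.6, 59.1 and 137 to 3.76, 3.97 and 6.17 CPM (log2 change -4.0, adjusted p = 0.000512).

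Few proliferation genes were called. Of 39 tested mitosis genes, 0 were called in edgeR or DESeq2, with a median log2 difference of 0.35. At an unadjusted p under 0.05, 6 were higher in edgeR and 9 in DESeq2, and without donor 2, 4 were called higher, 31 had an unadjusted p under 0.05 for a rise and the median was 0.68. Without donor 1 the median was 0.07. Of 38 DNA replication genes 1 was called, CDC45, a component of the replicative helicase, which rose from 61.3, 58.5 and 37 to 231, 187 and 127 CPM (log2 change 1.8 ± 0.09, adjusted p = 0.000558). The median of the DNA replication list was 0.06, but -0.25 without donor 1, where 10 members had an unadjusted p under 0.05 for a fall, and 0.30 without donor 2, where 7 had one for a rise. Of 24 junction genes the connexin genes GJA1 (log2 change -1.34) and GJC1 (1.69) were called, 1 in each direction, that of GJA1 not without donor 3 (adjusted p = 0.0292, log2 difference -0.98). Of all genes tested, 13.0% were called, a larger share than in the junction list. Without donor 1, 3 junction genes rose, and without donor 2, 2 rose. CDH5 had a log2 difference of 0.19 (adjusted p = 0.347), and PECAM1 of 0.98 (adjusted p = 0.0126), just under the 2-fold limit, which it passed without donor 1 (1.05) or donor 2 (1.07). The endothelial transcription factor ERG had 367, 359 and 368 CPM at 2 and 335, 423 and 409 CPM at 80 dyne/cm2 (log2 difference 0.09).

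The 2 sets at 30 dyne/cm2 were then used to place the 1465 changed genes. The position of a gene is the difference between its mean log2 CPM at 30 and at 2 dyne/cm2 divided by that between 80 and 2 dyne/cm2, so that 0 is the level at 2 and 1 the level at 80 dyne/cm2. With both sets, 733 genes (50%) lay in the middle, between 0.25 and 0.75 of the way, 632 (43.1%) between 0.75 and 1, 85 (5.8%) beyond the level at 80 dyne/cm2, 11 (0.751%) between 0 and 0.25, and 4 (0.273%) beyond the level at 2 dyne/cm2. The median position was 0.745 (0.798 with set 1 and 0.689 with set 2). On the shear axis itself, 30 dyne/cm2 lies 0.734 of the way from 2 to 80 on a log scale and 0.359 on a linear scale, which was worked out after the positions were known. Genes higher at 80 dyne/cm2 had a median position of 0.767 and genes lower there 0.727.

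Whether a gene at 30 dyne/cm2 left the midpoint of the extremes was tested in a fit of all 12 libraries with the donor term. This contrast does not use the difference between the extremes that chose the genes. The libraries of the extremes do enter its estimate of spread, however. Genes called for a small spread may pass it more readily, so the share among all genes is not an independent yardstick. Of the 1465 changed genes, 504 (34.4%, against 10.8% of all genes tested) differed from the midpoint at an adjusted p under 0.05 (of all genes, 5.92% lay above it and 4.93% below), of which 500 were nearer to 80 and 4 nearer to 2 dyne/cm2. The number was 76 without the donor term, 299 with set 1 alone, 152 with set 2 alone, and 180 and 123 without donor 1 and donor 3. Without regard to the test, 91.1% of the changed genes lay on the side of 80 dyne/cm2, against 68.7% of all genes tested. Taken by donor, 84.4%, 72.8% and 95.2% of the changed genes in donors 1, 2 and 3 were nearer to 80 dyne/cm2. The sets at 30 dyne/cm2 were closer to each other than the extremes were, with a median absolute log2 difference of 0.265 between sets over the changed genes, against 1.66 between the extremes, but 69 changed genes differed at least 2-fold between the sets.

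**Figure D5:**
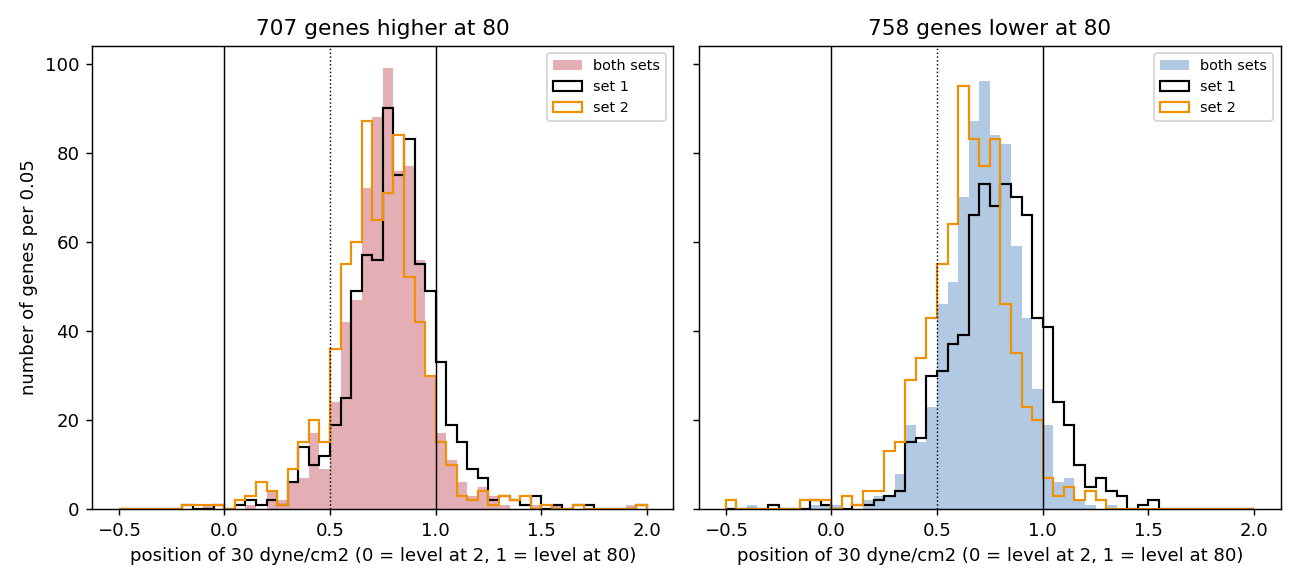
Number of changed genes by the position of their level at 30 dyne/cm2, where 0 is the level at 2 and 1 the level at 80 dyne/cm2, for the 707 genes higher (left) and the 758 lower (right) at 80 dyne/cm2, with both sets (filled), set 1 (black line) and set 2 (orange line), and values beyond the axis drawn in the outermost bins. Most genes lie between 0.5 and 1, and set 2 lies to the left of set 1.

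On the log2 scale, the genes furthest from the midpoint, picked by that distance, had made most of their change by 30 dyne/cm2. KCNMA1, WNT9B, SBSPON, TMPRSS6 and CIDEC stood furthest above it. In CPM the rise from 30 to 80 dyne/cm2 was still large for KCNMA1, WNT9B and SBSPON, and smaller for TMPRSS6. KCNMA1 averaged 12.7 and 7.31 CPM in sets 1 and 2 against 43.5 CPM at 80 dyne/cm2, and WNT9B 201 and 103 against 413 CPM. SBSPON averaged 2.04 and 2.9 against 5.86 CPM and TMPRSS6 9.14 and 8.76 against 11.9 CPM. CIDEC, a lipid droplet protein, was at 0.257, 0.71 and 0.957 CPM at 2 dyne/cm2, 17.5, 30.6 and 50.5 CPM in set 1, 24.3, 29.1 and 29.5 CPM in set 2 and 17.9, 49.95 and 32.2 CPM at 80 dyne/cm2, which puts its position at 0.98 (midpoint difference 2.76 ± 0.23 on the log2 scale, adjusted p = 0.00114). IGFBP5, MDFIC2, SLC6A12, ASPN and NKX2-8 stood furthest below. IGFBP5 fell to 0.149, 0.325 and 0.030 CPM in set 1 and 2.62, 1.63 and 0.254 CPM in set 2, a position of 0.97 (adjusted p = 0.0127).

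This group held some of the flow transcription factors and receptors. The position was 0.90 for KLF2 (midpoint adjusted p = 0.00585), 0.88 for KLF4 (0.00825), 0.95 for TEK (0.00144), 0.96 for RAMP2 (0.0013) and 0.92 for CALCRL (0.00604). TEK, for instance, had 529, 441 and 526 CPM in set 1 and 493, 388 and 468 CPM in set 2, against 541, 449 and 600.2 CPM at 80 dyne/cm2, so that each donor had made most of the change in both sets. For other changed members of the same lists a difference from the midpoint was not detected, among them NR4A1 (position 0.73, adjusted p = 0.107), KDR (0.79, 0.187), FLT4 (0.78, 0.191), NRP2 (0.59, 0.766) and NPR3 (0.54, 0.614). Of the genes that fell, ADM (0.87, adjusted p = 0.0013), CCN2 (0.94, 0.0235) and EDN1 (0.89, 0.0209) were placed likewise. In the sterol list the median position of the 21 called genes was 0.80, and 15 of them differed from the midpoint.

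Other genes lay near the midpoint. IGFBP3 lay at 0.49, with 493, 401 and 56.7 CPM in set 1 and 485, 469.9 and 268 CPM in set 2 (midpoint adjusted p = 0.867). COL3A1 lay at 0.51 (0.967), FN1 at 0.37 (0.356), AQP1 at 0.59 (0.155), NPR3 at 0.54 (0.614) and FASN at 0.50 (0.987), and none of these 6 was shown to differ from the midpoint. FN1 had 34037, 36117 and 25148 CPM in set 1 and 60748, 38906 and 36058 CPM in set 2, below all libraries at 2 dyne/cm2 except for donor 1 of set 2, which lay above donor 2 at 2 dyne/cm2, and above all libraries at 80 dyne/cm2. In the interstitial matrix list the median position of the 27 called genes was 0.70, and 6 differed from the midpoint. Whether the lists differ in position was not tested.

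Some genes left the range of the extremes, 85 beyond the level at 80 and 4 beyond that at 2 dyne/cm2. Of these, 67 and 2 also differed from the midpoint. The genes named here were picked after the values were seen. Interleukin-33 (IL33), an alarmin of the endothelial nucleus, had 113, 152 and 128 CPM at 2 dyne/cm2, 577, 434 and 275 CPM in set 1, 669, 702 and 751 CPM in set 2 and 239, 236 and 352 CPM at 80 dyne/cm2. In all but donor 3 of set 1 the level at 30 dyne/cm2 was above both extremes of that donor (position 1.94, log2 midpoint difference 1.53 ± 0.19, adjusted p = 0.0023). SDCBP2, a scaffold of the syntenin family, was the single changed gene above both extremes in every donor and both sets, with 19.5, 11.098 and 12.7 CPM at 2 dyne/cm2, 68.8, 50.2 and 35.6 and 45.3, 34.5 and 34.6 CPM at 30 dyne/cm2 and 31.4, 28.2 and 30.2 CPM at 80 dyne/cm2 (position 1.49, midpoint adjusted p = 0.00136). The change between the extremes itself was small for both, a log2 change of 1.07 for IL33 and 1.1 for SDCBP2, and neither was called without donor 3 (log2 differences 0.86 and 1.01, adjusted p = 0.0497 and 0.0643), nor SDCBP2 without donor 2 (0.97). The protease-activated receptor F2RL1 lay at 1.22, beyond the level at 80 dyne/cm2 (midpoint adjusted p = 0.012), but its change between the extremes was not called without donor 2 (adjusted p = 0.0739) or without the donor term (0.142). Towards the other end, but within the range of the extremes, GPRC5B (0.22) and VWA5A (0.17) were among the 4 genes that differed from the midpoint on the side of 2 dyne/cm2. The orphan receptor gene GPRC5B had 107, 102 and 67.2 CPM at 2 dyne/cm2, 147, 140.1 and 108 CPM in set 1, 124, 106 and 80.2 CPM in set 2 and 233, 347 and 238 CPM at 80 dyne/cm2 (midpoint adjusted p = 0.0253). A difference between 30 dyne/cm2 and the nearer extreme was not tested for any of these genes.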

How the data were processed

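RNA-seq was done on 12 cultures, 6 of which are compared. Per the labels and the submitters' processing notes, the authors processed base calls with CASAVA 1.8.2, mapped single-end reads to the Ensembl pig genome Sscrofa11.1 with STAR 2.4, discarded reads mapping to more than 1 place, which lowers near-identical gene copies, and deposited unnormalised counts per gene from featureCounts 1.4.6. Whether counting used strand is not given in the sources used here, so overlapping genes may share counts. Samples were grouped by their shear label. Same-numbered samples carry the same donor code, and their deviations from the group means correlated at 0.657 to 0.735 in 3 same-donor pairs, against -0.597 to -0.227 in 12 other pairs. Such deviations cancel within a group, which by itself pushes the values of the other pairs below zero and widens the gap.

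Genes with at least 1 CPM in 3 of the 6 libraries were tested in R 4.3.3 with edgeR 4.0.16 (limma 3.58.1): TMM, the quasi-likelihood test with donor as a block, two-sided, Benjamini-Hochberg adjustment over all 11246 genes. DESeq2 1.42.0 was an alternative. A gene was called at an adjusted p under 0.05 with a change of at least 2-fold. CPM printed are TMM-scaled over 12 libraries. Error bars on log2 changes are model standard errors. Changes of genes with at most 3 counts in every library of a group are bounds against that floor, which covers counting error only. Nothing says that donors were cultured more than once, so p-values rest on 3 donors. The test across many genes was first tested on simulated data.

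Symbols came from a table of Ensembl identifiers for 14647 of 21153 genes, 75 of them from identifier and name pairs in the study's supplementary tables, which hold genes the study had called. Positions are those of RefSeq for Sscrofa11.1, matched by unique symbol. Named genes were, in each direction, the 12 called genes with the largest change and a mean of at least 50 counts, the 6 called genes with the highest CPM, the 5 furthest from the midpoint, and members of the gene lists. A few genes are not reported here. The members compared and the lists were chosen with earlier results of these data known. List medians did not change with genes at the floor set to their bound.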

Additional observations from a re-analysis of the deposited data

How the results depend on the processing

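Dropping the donor term (the replicate block) left 1022 calls, 1010 of them shared with the paired fit, with 54.9% higher instead of 48.3% and 461 lower. It also left 76 genes away from the midpoint, and the calls of 76 of the 281 called genes whose stability was followed were lost. An adjusted p alone gave 1863 higher and 1657 lower. Leaving out 1 donor gave 964 to 1555 calls, with 498 to 769 higher and 466 to 809 lower, the fewest without donor 3. Relative log expression normalisation (1460 calls), DESeq2 with the donor term (1494), no filter on low counts (1806), at least 10 counts in every library (1332), the spread taken from 12 libraries (1517) and a test against a 1.5-fold change (1259) kept both directions within 1.5 times, and no shared call turned its sign in any setting. For the midpoint, set 1 alone gave 299 genes, set 2 alone 152, and leaving out 1 donor 123 to 388. With set 2 alone 12 genes lay beyond the level at 2 dyne/cm2 and 27 near it, and with set 1 alone 214 lay beyond the level at 80 dyne/cm2. The uncalled CCL2 turned to -0.11 with the spread from 12 libraries, and ranged from -0.23 (without donor 3) through -0.21 (without donor 2) to 0.86 with 1 donor left out. Without a donor, fewer samples are fitted; the cause of the other moves was not tested. With 3 pairs and 2 residual degrees of freedom, differences near 2-fold are weakly resolved, and genes under 1 CPM were mostly not tested.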

Other observations

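Gene groups outside the comparisons above were read in the same paired comparison of 80 with 2 dyne/cm2. The glycolysis and hypoxia list, 28 tested members, had 6 higher, 4 lower and 18 not called. Enzymes of glycolysis were among the members that rose, with GAPDH, one of the most abundant genes called, at 1846, 1713 and 1431 CPM at 2 and 4121, 3576 and 4164 CPM at 80 dyne/cm2 (log2 change 1.26 ± 0.16, adjusted p = 0.00475, edgeR). Pyruvate kinase (PKM) and lactate dehydrogenase A (LDHA) rose by 1.68 and 1.79 on the log2 scale. The growth factor VEGFA rose by 1.04 (not without the donor term or without donor 2 or 3). PDK4 and PDK1, kinases that inhibit pyruvate dehydrogenase, fell by 3.76 and 1.36. ANGPTL4, an inhibitor of lipoprotein lipase, fell from 81.7, 57.3 and 38.9 to 5.82, 7.85 and 2.14 CPM. In the list of NRF2 targets, 5 of 20 tested members were higher and 0 lower (3 and 0 without the donor term), and at an unadjusted p under 0.05 1 was lower in edgeR and in DESeq2. The NADPH-producing enzymes PGD and ME1 rose by 1.18 and 1.5. In the list of endoplasmic reticulum and amino acid stress, 8 of 28 were higher and 0 lower, with 4 higher without the donor term or without donor 3, and 1 lower at an unadjusted p under 0.05 in both tools. Its largest change was that of DDIT4, an inhibitor of mTORC1, from 27.4, 30.2 and 29.2 to 141, 128 and 162 CPM.

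Among sphingosine phosphate genes, 4 of 11 tested members rose and 0 fell, with 1 lower at an unadjusted p under 0.05 in edgeR and DESeq2. SPHK1, the kinase that makes the lipid, went from 5.29, 3.77 and 3.37 to 19.2, 19.8 and 20.6 CPM, SPNS2, which exports it, rose by 1.26 and PLPP1, a phosphatase that degrades it outside the cell, by 2.24 on the log2 scale. The median position of the 4 at 30 dyne/cm2 was 0.935. Of 20 proteoglycan and glycocalyx genes, 6 rose and 4 fell (5 and 1 without the donor term, 5 and 2 without donor 3 or against a 1.5-fold change), among them the heparan sulfate sulfotransferase HS3ST1, from 0.668, 0.484 and 0.759 to 8.51, 15.9 and 24.1 CPM. Of 35 guidance genes, 8 rose and 4 fell (5 and 2 without the donor term). The ephrin receptor EPHB1 rose from 3.47, 5.29 and 4.49 to 139.6, 77.6 and 125 CPM, while the repellent SLIT2 fell by 2.49 on the log2 scale. Of 28 genes fed back on by ERK signalling, 6 rose and 2 fell, with 4 and 1 without the donor term, 6 and 1 without donor 1, 4 and 5 without donor 2, 6 and 5 in DESeq2 with the donor term and 5 and 4 with the spread from 12 libraries. The antagonists SPRY1 and SPRY2 went opposite ways, by 1.51 and -1.44. Of 12 mesenchymal genes, 6 fell and 1 rose (2 fell without the donor term). The member that rose was S100A4, a calcium-binding protein of motile cells, from 1.16, 3.16 and 1.52 to 37, 86.1 and 221 CPM (log2 change 5.62 ± 0.52, adjusted p = 0.00179).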
